A study of Mus musculus with 24 samples.

Results

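One of the 6 RNA libraries labelled as liver of fasted control mice carried the transcripts of a kidney. It was set against the other 5 libraries of its group, control fasted replicates 1, 2, 3, 5 and 6, and every list of values below keeps the livers in that order and names them by those numbers. The library, labelled control fasted replicate 4, was chosen by its own values: Kap, Umod and Slc34a1 were high in it and Alb was low. With 1 library on one side and that way of choosing it, all of what follows is description, and no test was made.

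All 6 libraries of the group are labelled as from mice with floxed alleles (titled fl/fl, genotype Control) that had been fasted for 18 h. The series also holds fed control livers and fed and fasted livers of mice with a liver knockout of alanine transaminase 2, the enzyme encoded by Gpt2, 24 libraries in all, of which 23 had a usable file. Every library is labelled as liver and was made from oligo-dT selected RNA, and the labels do not name the Cre driver of the knockout. Each title carries a number of its own, but the labels do not say that it marks a separate animal, so the spread between libraries may be partly technical.

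The kidney filters blood in its glomeruli, whose podocytes hold back protein, and then reclaims most of the filtrate along the nephron. The proximal tubule takes back phosphate, glucose, amino acids and filtered protein through carriers and receptors of its brush border. The thick ascending limb and distal convoluted tubule reclaim salt, and the collecting duct sets water, potassium and acid balance through principal and intercalated cells. Hepatocytes share some tasks with proximal tubule cells, among them gluconeogenesis in fasting and fatty acid oxidation, and both use the transcription factor HNF4A. Making the plasma proteins, the bile acids and most urea is the work of hepatocytes.

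The promoters of the 4 genes that chose the library are shown because they stand for both sides of the contrast. Each is the 250 bases before the RefSeq transcription start (GRCm38.p6), 5′ to 3′ on the gene's strand. Kap lies at chr6:133853668-133853917 (minus strand), Umod at chr7:119479263-119479512 (minus), Slc34a1 at chr13:55399398-55399647 (plus) and Alb at chr5:90460620-90460869 (plus). Capitals mark TATAAA, the core of the TATA box, on either strand.
Kap: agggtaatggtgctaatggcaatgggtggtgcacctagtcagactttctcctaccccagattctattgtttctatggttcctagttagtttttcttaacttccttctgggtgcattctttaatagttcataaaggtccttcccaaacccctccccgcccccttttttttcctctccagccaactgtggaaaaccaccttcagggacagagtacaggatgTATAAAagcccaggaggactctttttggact
Umod: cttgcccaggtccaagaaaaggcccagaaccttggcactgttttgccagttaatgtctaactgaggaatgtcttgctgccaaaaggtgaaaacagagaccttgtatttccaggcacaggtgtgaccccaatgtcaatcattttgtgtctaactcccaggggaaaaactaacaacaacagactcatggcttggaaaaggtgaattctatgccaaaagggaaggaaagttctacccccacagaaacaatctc
Slc34a1: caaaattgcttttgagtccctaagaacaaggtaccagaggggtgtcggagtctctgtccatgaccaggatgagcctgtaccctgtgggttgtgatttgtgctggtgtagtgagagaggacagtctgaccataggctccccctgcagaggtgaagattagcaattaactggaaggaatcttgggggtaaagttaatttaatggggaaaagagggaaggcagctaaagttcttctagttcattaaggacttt
Alb: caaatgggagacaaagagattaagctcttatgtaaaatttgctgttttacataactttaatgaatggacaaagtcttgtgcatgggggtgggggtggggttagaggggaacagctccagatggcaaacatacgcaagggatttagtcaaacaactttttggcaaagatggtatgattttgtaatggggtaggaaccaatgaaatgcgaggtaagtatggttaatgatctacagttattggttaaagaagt
Kap has TATAAA 31 bases before its start, and the letters are not in the windows of the other 3 genes. Among 27025 genes with a promoter in the table, 13.0% held TATAAA. It stood in 12 of the 100 promoters with the greatest positive differences in this comparison and in 19 of the 100 with the greatest negative ones. The HNF4 motif CAAAGTCCA was in 0 and 4 of the same sets of 100 and in 0.381% of all, and the ERR motif TCAAGGTCA in 0 and 1 and in 0.366% of all. Both strands were searched, and a match is letters only.

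Levels within a gene are given as CPM, read counts per library size scaled by TMM factors over the 6 libraries. A difference is the library's log2 CPM (prior count 2) minus the mean log2 CPM of the 5 livers, with the SD over the 5. A gene was called higher or lower when it differed at least 4-fold and lay outside the range of all 5 livers. Kap, a small protein made by proximal tubule cells under androgen control, had 304704 reads in the library and 0, 17, 0, 413 and 0 reads in the livers. Umod, encoding uromodulin of the thick ascending limb, had 149155 reads against 0, 1, 1, 6 and 0. Slc34a1, the phosphate carrier of the proximal brush border, had 191143 reads against 0, 33, 0, 217 and 0. The library was thus far above every liver for the 3 genes, and control fasted replicate 5 was the highest of the livers for each of them. In CPM, Kap was at 4586 against 2.11 ± 4.21 (SD, n = 5), a difference of 14.09 ± 3.46. Without replicate 5 the mean of the livers dropped from 2.11 to 0.240 CPM and the difference was 15.38.

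A pair of further marker genes of the nephron did the same. Slc12a1, the sodium, potassium and chloride carrier that loop diuretics block, had 59260 reads in the library and 1 read in the 5 livers together. Lrp2, encoding the protein receptor megalin, had 84159 reads against 14, 7, 0, 194 and 1, or 1267 CPM against 1.07 ± 1.93 (a mean of 0.206 without replicate 5). Alb, encoding albumin, was at 79.9 CPM in the library and at 103920, 87273, 47668, 79159 and 60392 in the livers, a difference of -9.83 ± 0.45. The gene the study deleted elsewhere, Gpt2, is intact by label in all 6 libraries, and stood at 35.7 CPM against 749, 853, 780, 756 and 598 (-4.38 ± 0.19). Its cytosolic relative Gpt was at 22.4 against 275, 319, 387, 287 and 339 CPM (-3.83 ± 0.20). The library lay below all 5 livers for Alb, Gpt2 and Gpt.

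**Figure D1:**
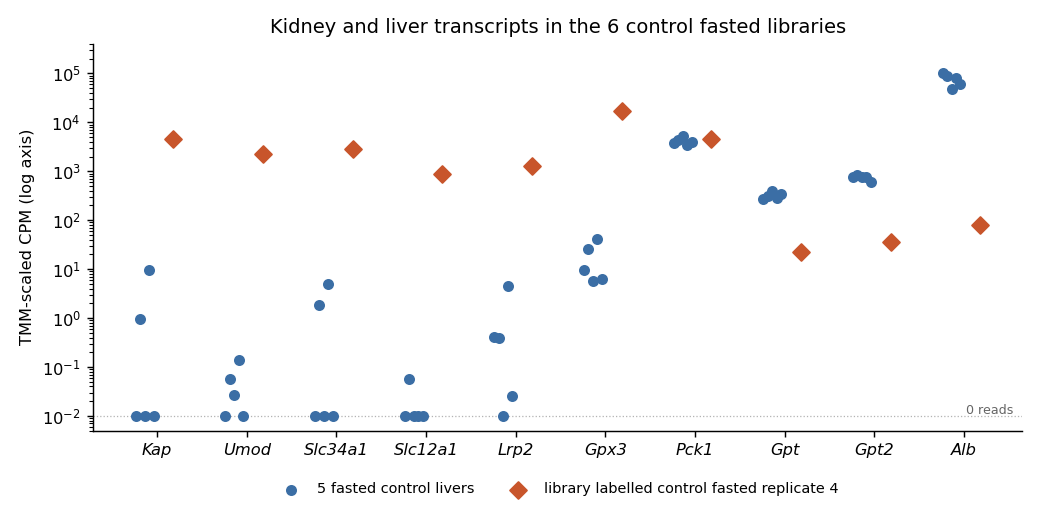
TMM-scaled CPM (log axis) of 10 genes in the 5 fasted control livers (circles) and in the library labelled control fasted replicate 4 (diamonds), with libraries at 0 reads drawn on the dotted line. The diamonds lie far above the circles for the 6 kidney genes from Kap to Gpx3, beside the circles for Pck1, and far below for Gpt, Gpt2 and Alb.

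The label was set beside markers of both organs. Over 13613 genes tested, meaning compared at a mean of at least 1 CPM on average over both sides, Spearman's correlation of the library with each of the 5 livers was 0.630 to 0.635, whereas the livers correlated with each other at 0.967 to 0.976. Its correlation with each of the 22 livers of the series was 0.616 to 0.640. These correlations describe libraries that share the same gene set and scaling. The gene set was fixed with the library in it, and 156 of its genes had 0 reads in all 5 livers. The defining markers of the nephron were high and those of the hepatocyte were near 0, unlike the label liver. Kap, Umod, Slc34a1 and Alb among them had chosen the library, so this is description and no separate evidence against the label. The library is called by its label throughout.

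Of the 13613 genes tested, of 41388 in the files, 2053 (15.1%) were called higher and 1053 (7.74%) lower. These shares are the background for each list below, and since the contrast itself chose the library, nothing is read from a list's excess over them. Genes within 2-fold made up 59.4% of those tested (8081). Of the 2053 higher genes 1939 were protein coding, as were 947 of the 1053 lower ones. The higher genes took 20.2% of the library's reads and on average 0.658% of a liver's. The lower genes took 2.52% of the library's reads and 42.9% of a liver's. The last gene inside the 4-fold limit among well expressed genes was Ivns1abp, at 2.006 on the log2 scale. On the lower side H2-D1 was inside at -2.003 and Scarb2 outside at -1.988.

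**Figure D2:**
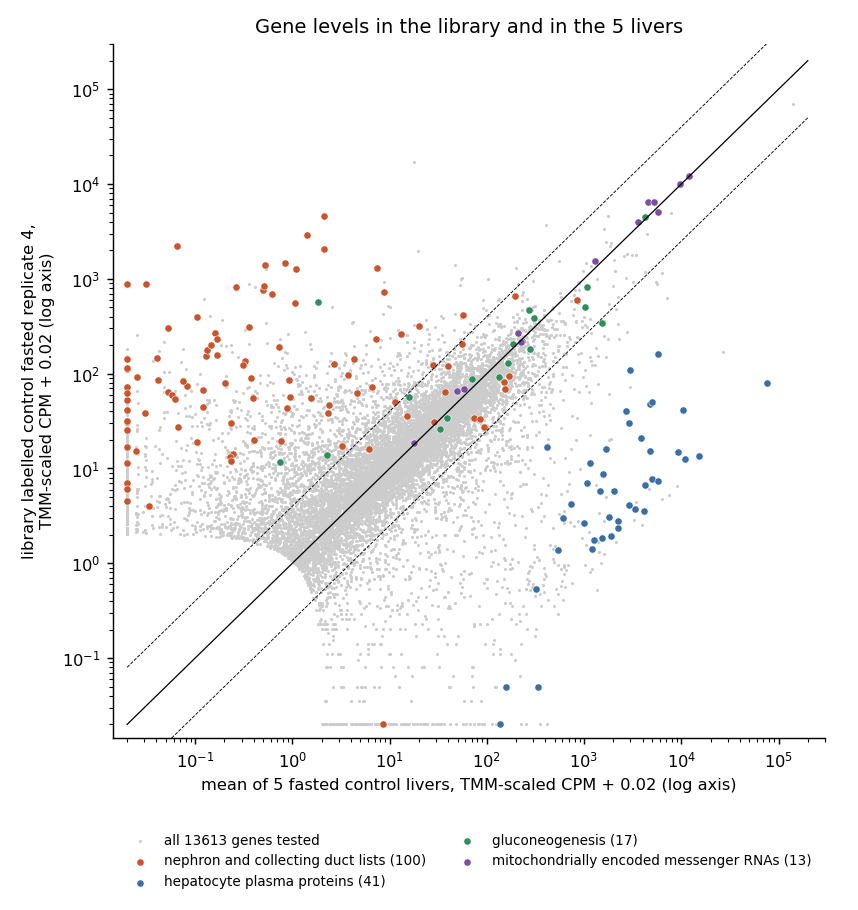
TMM-scaled CPM plus 0.02 (log axes) of the 13613 genes tested, in the library labelled control fasted replicate 4 against the mean of the 5 livers. The solid line marks equality and the dashed lines 4-fold. Nephron genes lie mostly above the upper dashed line, all 41 plasma protein genes below the lower one, and the mitochondrially encoded messenger RNAs near the line of equality.

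The library held 43274332 reads in genes and the 5 livers 19929168 to 46493436. It had reads in 20351 genes against 17011 to 17935 in the livers. Mitochondrially encoded genes took 7.90% of its reads and 3.50 to 4.79% of theirs. Its 20 most abundant genes held 26.4% of its reads and 29.5 to 40.4% in the livers. The TMM factor was 1.54 for the library and 0.816 to 0.9998 for the livers. Scaling by library totals instead moved the median difference of all tested genes from 0.11 to 0.84, a shift that is the same for all genes with enough reads. By totals 80.5% of the calls were higher, against 66.1% with TMM.

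Levels per length of transcript (RPKM) were ranked without mitochondrially encoded genes, some of which lay above Kap (mt-Cytb at 13511 and mt-Co1 at 12166 RPKM). In that ranking Gpx3 was the most abundant gene in the library after 3 that overlap ribosomal RNA or similar repeats (Gm23935, Gm42418 and Mir6236). Gpx3 encodes the glutathione peroxidase that proximal tubule cells secrete into plasma, and its deposited RPKM was 14560 in the library against 3.03 to 21.4 in the livers. Kap was next at 11580 RPKM, followed by the iron storage gene Fth1 at 5966. Further down stood Klk1 (2469), Fxyd2 (2063), Pck1 (2024), Slc34a1 (1434), Umod (1394) and Igfbp7 (1261). Igfbp7, a secreted protein that binds growth factors, differed by 4.21 (997 against 54.3 CPM). Ranked by RPKM in the same way, without mitochondrially encoded genes, Alb held rank 3 in the mean of the livers and rank 787 in the library. Apoa1 went from rank 6 to rank 2865, Serpina3k from 14 to 7392 and Mat1a from 20 to 10014. Gm23935 and Gm42418 held the first ranks on both sides.

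The defining genes of the proximal tubule had a summed level of 13656 CPM in the library against 944 to 1123 in the livers. Of 15 defining genes, all tested, 13 were higher and none lower, with a median difference of 10.41 against 0.11 over all genes tested. Miox, an enzyme that breaks down inositol, was at 551 CPM against 0.0577, 0, 0, 4.72 and 0.414. Acsm2, a medium-chain acyl-CoA synthetase, was at 2050 against 1.70, 0.792, 1.73, 5.76 and 0.466 CPM. Napsa, a protease of the lysosome, was at 811 CPM against 0, 0.339, 0.261, 0.604 and 0. Fxyd2, the regulatory subunit of the sodium pump, was at 849 against 0, 0.962, 0, 1.46 and 0. The library exceeded each liver by more than 100-fold in these 4 genes, and replicate 5 was again the highest liver. Cyp4b1, a cytochrome P450, had a floor in the livers that was even across them: 6.15, 8.54, 6.12, 9.83 and 6.44 CPM against 1293. The 2 members not called were Hnf4a, at 600 against 856 ± 77.1 CPM, and Acsm3, at a difference of 1.89 (Acsm3 was picked out after its value was seen). The deposited RPKM of Hnf4a was above every liver (191 against 146 to 174), so its direction rests on the scaling.

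Many carriers of the proximal tubule were higher. Of 16 carriers of phosphate, sulfate, glucose and monocarboxylates 12 were higher (median 7.74), of 15 amino acid and peptide carriers 12 (median 6.87), and of 20 organic anion and cation carriers 15 (median 4.96), and none in these lists was lower. Slc5a2, the glucose carrier SGLT2, was at 179 CPM against 0.0289, 0.453, 0.0784, 0 and 0. Slc5a10, a sugar carrier of the same family, was at 199 CPM, and 4 of the 5 livers had 0 reads. Slc13a3, which takes up dicarboxylates, was at 721 against 8.77 ± 3.74 CPM. The glucose carrier of the basal side, Slc2a2, is also that of hepatocytes, and it was at 81.8 against 148, 212, 114, 124 and 146 CPM. Its deposited RPKM was inside the range of the livers (45.6 against 40.2 to 68.4). Slc4a4, a sodium bicarbonate carrier, was at 659 against 196 ± 19.1 CPM, a difference of 1.75 that missed the 4-fold limit.

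Slc6a18, a neutral amino acid carrier, was at 399 CPM in the library and had reads in replicate 5 alone among the livers (0.418 CPM). Cltrn, encoding collectrin, which brings such carriers to the membrane, was at 310 against 0, 0.339, 0, 1.30 and 0.0517 CPM. Slc3a1, part of the cystine carrier, was measurable in every liver (17.0, 8.09, 7.66, 18.3 and 14.2 CPM) and at 260 in the library. Slc6a13, which carries taurine and GABA and is a liver gene as well, was at 68.5 against 152 ± 22.2 CPM. Among the drug and urate carriers, Slc22a6 (OAT1) was at 872 CPM against 0.115, 1.58, 0, 0 and 0. Here replicate 2, with 28 reads, was the highest liver. Slc22a12, the urate carrier URAT1, was at 1259 CPM against 0, 0.848, 0, 1.72 and 0.0259, a mean of 0.519 that was 0.219 without replicate 5. Slc22a8 (OAT3) was at 405 CPM, and among the livers replicate 5 alone had reads of it (26 reads, 0.604 CPM). Slc47a1, which passes organic cations into urine and bile, was at 405 against 99.4 ± 5.23 CPM, just past 4-fold at 2.03.

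Brush border enzymes followed, with 9 of 12 higher, none lower and a median of 6.45. Mep1a, a subunit of the protease meprin, had 59189 reads in the library and 0 in all 5 livers. Set against a floor of 3 counts over the 5 livers together, it was at least 51160-fold higher. Ggt1, which cleaves glutathione, was at 686 CPM against 0, 1.98, 0, 0.976 and 0. Ace, the angiotensin-converting enzyme, was at 193 against 0.923, 1.81, 0.523, 0 and 0.310 CPM, a mean of 0.713 that was 0.439 without replicate 2. Anpep, aminopeptidase N, is made in both organs and stood at 94.0 against 167 ± 33.8 CPM. By deposited RPKM it was inside the range of the livers (37.2 against 30.7 to 46.5). Enpep and Dpp4, the other members not called, differed by 0.77 and -1.13 (picked out after their values were seen).

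Of 13 thick ascending limb genes 12 were higher, with a median of 10.30, or 11.23 when genes without a read in the livers are set at their lower bound. Egf, encoding epidermal growth factor, was at 1459 CPM against 0.519, 1.02, 0.523, 1.72 and 0.362. The potassium channel gene Kcnj1 had 7358 reads in the library and no read in any of the 5 livers, which puts it at least 6360-fold higher. Cldn10, a tight junction gene, was at 85.0 CPM, and livers 1 and 3 had the only reads. The exception was Cldn14, another tight junction gene, with 0 reads in the library and 8.61 ± 2.14 CPM in the livers, at least 191-fold lower (picked out after its value was seen).

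Of 10 genes of the distal convoluted and connecting tubule 9 were higher (median 7.05). Slc12a3, the thiazide-sensitive salt carrier, was at 764 CPM against 0.0289, 1.02, 0.209, 1.16 and 0. Klk1, tissue kallikrein of the connecting tubule, was at 1408 against 0.202, 0, 0, 2.18 and 0.103 CPM. Kl, encoding the FGF23 co-receptor klotho, was at 300.5 CPM with 1 read in liver 3 and 6 reads in liver 5. Wnk4, a kinase that regulates salt carriers, was at 142 against 4.24 ± 1.27 CPM. Only livers 3 and 5 had a read of Kl, while Wnk4 was measurable in all 5.

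In the collecting duct, 8 of 9 tested genes of principal cells (11 in the list, median 8.55) and all 10 matched genes of intercalated cells (median 8.27) were higher. Aqp2, the water channel that vasopressin moves to the membrane, had 6168 reads in the library and 1 in the livers together. Hsd11b2, which protects the mineralocorticoid receptor from glucocorticoid, was at 135 CPM against 0, 0, 0.0261, 1.49 and 0. Scnn1a, the alpha subunit of the sodium channel, had a liver level of 27.7 ± 8.08 CPM and was at 122 in the library, a difference of 2.21, whereas Scnn1b was at 44.9 against 0.102 ± 0.0993 CPM. Atp6v1b1, a proton pump subunit of intercalated cells, was at 80.2 CPM against 0.231, 0.679, 0, 0 and 0. Aqp6 had 2101 reads and Fxyd4 756 reads, with 0 in all 5 livers, at least 1816-fold and 653-fold higher. Each of these segment lists, from the proximal tubule to the collecting duct, thus held mostly genes that were higher.

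The lists of podocytes and of juxtaglomerular and mesangial cells had smaller median differences (4.24 and 1.56) than those of the tubule segments. Of 12 podocyte genes 8 were higher and none lower (median 4.24). Podxl, which coats the podocyte surface and also endothelium, was at 126 against 5.34, 5.66, 5.80, 6.97 and 4.22 CPM. Ren1, encoding renin of the juxtaglomerular cells, was at 27.6 CPM against 0.519, 0, 0.157, 0 and 0.362, a mean of 0.208 that was 0.130 without replicate 1, while the other genes of that list were mixed: of 6 tested, 2 were higher, and Agtr1a, the angiotensin receptor gene that the liver expresses, was lower (16.1 against 87.4 ± 8.09 CPM).

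Of 8 tested genes of renal hormones and their receptors 7 were higher (median 9.15). Vdr, the vitamin D receptor, was at 370 CPM and had reads in liver 5 alone (0.837). Cyp24a1, which breaks down active vitamin D, was at 182 CPM, likewise with reads in liver 5 alone. Pth1r, the parathyroid hormone receptor, was at 508 against 10.1 ± 2.88 CPM. Agt, the liver's angiotensinogen gene, was the 1 lower member, at 69.1 against 789 ± 168 CPM. Epo, encoding erythropoietin, had 0 reads in the library, which allows up to 0.0452 CPM (3 counts), so its level was not detectable at this depth. Of 7 genes for osmolyte handling 3 were higher, among them Slc14a2, the urea carrier of the inner medulla, with 1887 reads and none in the livers (at least 1631-fold). Slc6a12, the betaine carrier, was lower at 1.85 against 77.7 ± 14.4 CPM, and Slc6a6, the taurine carrier, stood at 1.99, just short of 4-fold.

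All 15 transcription factors of the kidney list were higher, with a median of 8.39. Emx1 and Irx2 had 1893 and 1810 reads in the library and none in the 5 livers, at least 1636-fold and 1564-fold higher. Pax2, a regulator of nephron formation, was at 53.3 CPM against 0.635, 0, 0, 0 and 0.0517.

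On the liver side, all 41 plasma protein genes were lower (median -9.14). Cpn2 (a subunit of carboxypeptidase N), Apon and Apoc2 (apolipoproteins) were at 415 ± 64.4, 355 ± 17.3 and 252 ± 39.1 CPM in the livers and had 0 reads in the library. With a floor of 3 counts in the library this is at least 9186-fold, 7852-fold and 5578-fold lower. F9, clotting factor IX, also had 0 reads (livers 141, 142, 134, 140 and 129 CPM), and the complement gene C9 had 2 reads against a mean of 338 ± 47.9 CPM. The livers varied little in these genes and the library was below each of them by a wide margin.

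As percent of the mean of the livers, the plasma protein genes stood at a median of 0.168%, with quartiles of 0.117% and 0.574%. Set against each liver in turn the median was 0.171 to 0.235%. Alb was at 0.106%, Apoa1 at 0.0903%, Fgb (fibrinogen) at 0.112%, Ahsg (fetuin A) at 0.116% and Hp (haptoglobin) at 0.160%. Of the 41 genes, 34 were under 1%. At the top stood C8a at 4.06%, Serpina1d at 3.72%, Apob at 2.80% and Fga at 1.48%. The genes were thus not all at 1 share of the liver level: the lowest with reads, C9, was at 0.00891%. The source of these reads was not tested. In bulk RNA, fewer cells of a type and less RNA per cell cannot be told apart.

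**Figure D3:**
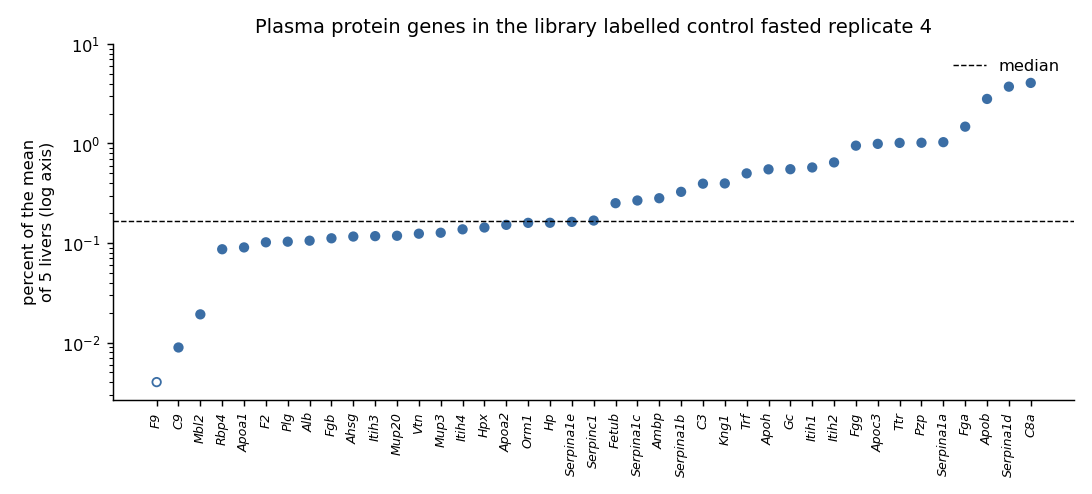
Level of 41 plasma protein genes in the library labelled control fasted replicate 4 as percent of the mean of the 5 livers (log axis, genes in rising order, the dashed line is the median of 0.168%). F9, with 0 reads, is drawn as an open circle at the bottom. The 18 genes from Rbp4 to Serpinc1 lie between 0.0865 and 0.168%, and 7 genes lie above 1%.

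Hepatocyte enzymes were lower in 22 of 24 cases (median -8.50) and hepatocyte carriers in 10 of 14 (median -7.88). Cyp7a1, the rate-limiting enzyme of bile acid synthesis, had 3 reads against 247, 410, 93.4, 229 and 112 CPM. Cyp8b1, of the same pathway, was at 0.798 against 1157 ± 195 CPM. Cyp2e1, a P450 that both organs hold, was at 629 against 7045 ± 604, a difference of -3.48. Slc10a1, the bile acid uptake carrier NTCP, was at 0.828 against 650 ± 107 CPM, and Slc27a5 at 0.602 against 757 ± 75.7. The 1 higher carrier was Slc22a7 (OAT2), at 117 against 7.97 ± 4.18 CPM, picked out after its value was seen.

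Of 20 liver transcription factors 14 were lower, none higher, with a median of -3.72. Creb3l3, an activator of fasting genes in liver, was at 3.10 against 392 ± 28.8 CPM. Cebpa was at 65.3 against 562 ± 131 and Rxra at 117 against 610 ± 79.2 CPM. Foxa2 and Foxa3, which had 0 reads in the library, were at 31.3 ± 11.4 and 73.0 ± 32.9 CPM in the livers, at least 692-fold and 1616-fold lower. Hnf4a was not called (Foxa2 and Foxa3 were picked out after their values were seen). Of the 15 bile acid genes 9 were lower and 3 higher, the latter being Slc51a and Slc51b, which form an exporter of bile acids, and Slc10a2, the uptake carrier of ileum and proximal tubule (differences of 8.41, 6.31 and 2.89, also picked out afterwards).

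**Figure D4:**
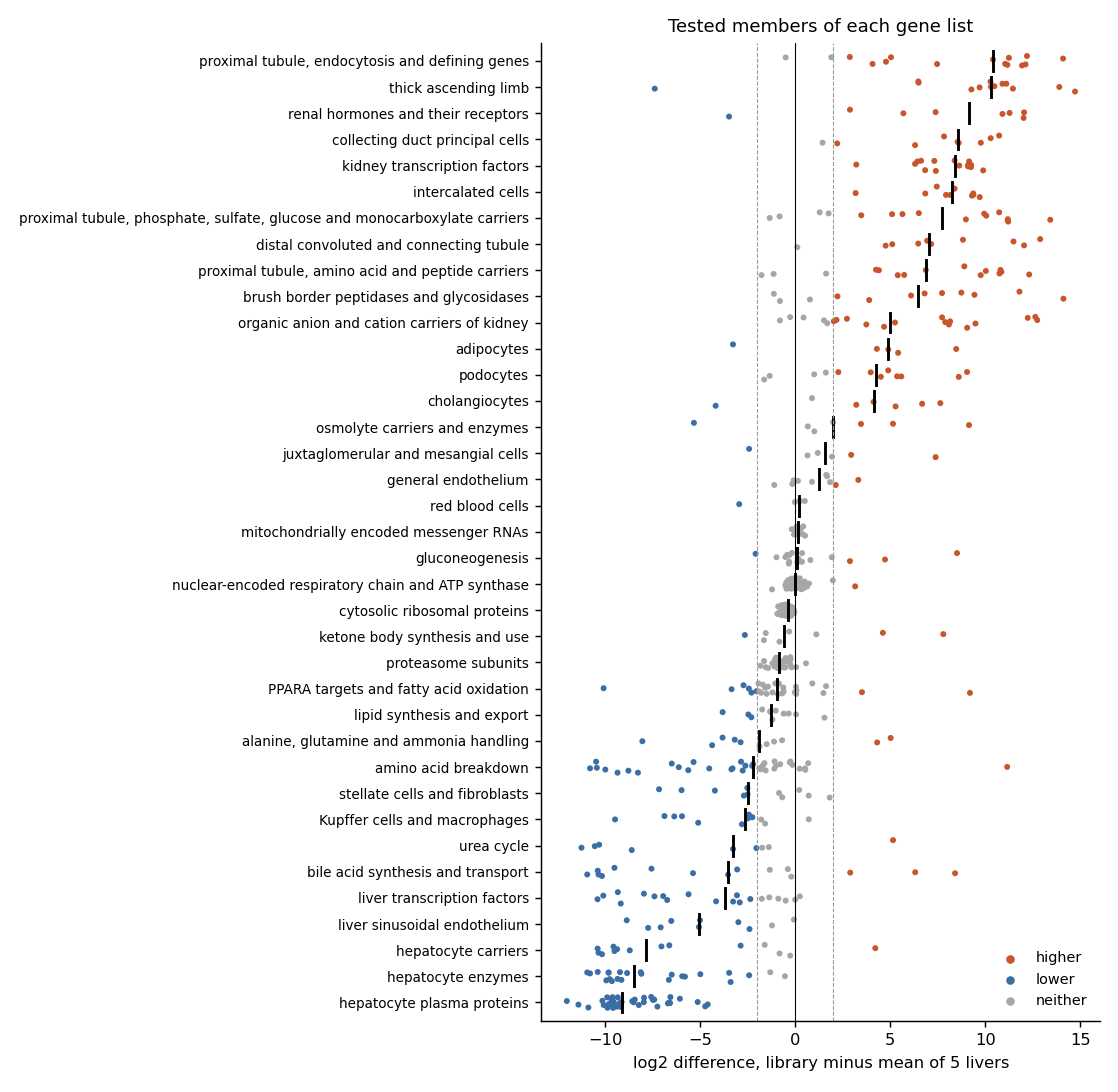
Differences on the log2 scale (library minus mean of the 5 livers, horizontal axis) of the tested members of each gene list with at least 5 tested, ordered by the list's median (black bar). Dashed lines mark 4-fold. Lists of tubule segments, their carriers and brush border lie towards the top with medians of 4.96 to 10.41, hepatocyte lists at the bottom with medians of -7.88 to -9.14, and lists of shared metabolism near 0.

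Nitrogen metabolism split by gene. In the urea cycle 6 of 9 genes were lower (median -3.28). Cps1, its first enzyme, was at 2.54 CPM against 3527, 4389, 4785, 3518 and 3435, and Arg1, its last, had 33 reads (0.497 CPM against 1347 ± 197). Ass1, which in the proximal tubule makes arginine from citrulline, was at 1021 against 2702 ± 379 CPM, and Asl at 122 against 1216 ± 316. Arg2, the mitochondrial arginase, was the 1 higher member at 5.14 (picked out after its value was seen). Of 37 genes of amino acid breakdown 19 were lower, 17 not called and 1 higher. Mat1a, which makes S-adenosylmethionine in liver, was at 5.21 against 7469 ± 1652 CPM and Tat, tyrosine transaminase, at 1.29 against 1427 ± 430. Hpd, the next enzyme of tyrosine breakdown, was at 72.3 against 2976 ± 330 CPM. The higher gene was Dao, D-amino acid oxidase, at 202 CPM with reads in liver 5 alone (35 reads, picked out afterwards).

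Among genes for alanine, glutamine and ammonia, 5 of 11 were lower, Gpt2 and Gpt among them, and 2 were higher. Got1, the cytosolic aspartate transaminase, was at 40.4 against 378 ± 99.1 CPM, while the mitochondrial Got2 (166 against 475 ± 68.9) and Glud1, glutamate dehydrogenase (486 against 795 ± 136), were not called. Slc1a5, a glutamine carrier, was at 30.3 against 1.86 ± 1.49 CPM (picked out afterwards).

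Gluconeogenesis is carried out by both organs. Of its 17 genes 3 were higher and 1 lower, shares of 17.6% and 5.88% beside 15.1% and 7.74% over all genes tested, with differences from -2.09 to 8.51. The median was 0.11, the same as over all genes. By library totals it was 0.86, and that over all genes 0.84. Pck1, its rate-limiting enzyme, was at 4521 CPM against 3815, 4430, 5371, 3460 and 4045, inside the range of the livers with TMM. By library totals the difference of Pck1 was 0.86, and its deposited RPKM was above every liver (2024 against 908 to 1523). Pcx was at 822 against 1064 ± 232 and Fbp1 at 510 against 1018 ± 117 CPM. By deposited RPKM Pcx was above every liver (296 against 153 to 281) and Fbp1 below every liver (460 against 466 to 662). G6pc was at 181 against 278 ± 129 CPM. The subunits of lactate dehydrogenase went opposite ways: Ldhb, the form of oxidative tissue, was at 573 against 0.808, 1.36, 1.20, 4.46 and 1.35 CPM, and Ldha at 344 against 1514 ± 421. The other higher genes were Pck2 and Fbp2 (differences of 2.88 and 4.72, picked out afterwards together with G6pc).

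Of 30 tested genes of fatty acid oxidation and PPARA, the receptor that drives it in fasting, 22 were not called, 6 were lower and 2 higher (median -0.98, and -0.24 by library totals). Ehhadh was at 1199.5 against 1593, 2631, 1457, 3502 and 1235 CPM. Cyp4a10 was at 1193 against 4194 ± 825 and Cyp4a14 at 1143 against 6293 ± 1076 CPM, so both P450 genes were lower than in any liver, the latter past 4-fold. Fabp1, the fatty acid binding protein of liver, was at 2.86 against 3288 ± 984 CPM. With TMM, Slc27a2, a fatty acid carrier, was among the most abundant genes alike on both sides (2219 against 1866 ± 127 CPM). Its deposited RPKM, which has no such factor, was above every liver (908 against 411 to 512).

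Of 8 genes of ketone body synthesis and use, 2 were higher, 1 was lower and 5 were not called. Bdh1, which interconverts the main ketone bodies, was at 87.8 against 277 ± 33.6 CPM and was not called. Oxct1, the enzyme of ketone use that hepatocytes lack, was at 504 against 1.21, 3.90, 1.20, 3.69 and 2.56 CPM. Bdh2 was at 71.9 against 2.95 ± 0.600 CPM. The median over the 8 genes was -0.58 and turned to 0.17 by library totals.

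Basic machinery of the cell was called in 1 of 201 tested genes over 4 lists. The median difference was -0.40 for 75 ribosomal protein genes (0.34 by totals), -0.01 for 76 nuclear genes of the respiratory chain (0.74 by totals), 0.15 for 13 mitochondrially encoded messenger RNAs (0.89 by totals) and -0.86 for 37 proteasome genes (-0.11 by totals). mt-Co1 was at 12242 CPM against 10355, 12642, 12236, 13831 and 11099. Atp5b, a subunit of ATP synthase, was at 1486 against 1054 ± 41.2 CPM. The direction of the first 2 lists thus rests on the scaling.

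Cells other than epithelium differed as well. Of 10 markers of liver sinusoidal endothelium 8 were lower (median -5.04): Clec4g had 0 reads against 24.1 ± 5.95 CPM (at least 533-fold lower) and Stab2 was at 1.72 against 58.1 ± 12.2. Of 10 general endothelial genes 2 were higher and none lower, with a median of 1.26 (2.00 by library totals), and their summed level of 382 CPM was above that of every liver (176 to 256). Plvap, of fenestrated endothelium, was higher at 136 against 32.8 ± 12.8 CPM. Kdr, at 30.8 against 33.0 ± 4.12, and Eng, at 47.8 against 43.7 ± 6.06 CPM, were inside the range of the livers with TMM. By deposited RPKM, Kdr (6.51 against 3.75 to 5.04) and Eng (19.0 against 9.25 to 11.7) were above every liver. Of 12 Kupffer cell and macrophage genes 9 were lower (median -2.65). Clec4f, specific to Kupffer cells, had 0 reads against 36.4 ± 5.28 CPM, at least 805-fold lower, whereas Csf1r, common to macrophages, was at 36.6 against 22.5 ± 2.21. Of 11 stellate cell and fibroblast genes 6 were lower, with Hand2 at 0 reads against 7.35 ± 1.79 CPM (at least 163-fold) and Col1a1 at 12.7 against 3.71 ± 1.16. Of 7 genes listed for bile duct cells 5 were higher, such as Spp1 (256 against 15.1 ± 4.14 CPM) and Krt7 (80.8 against 0.573 ± 0.467). Sox9 was lower, at 0.482 against 10.3 ± 3.65 CPM.

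Reads of the adrenal gland, pancreas and urothelium were few, and those of fat cells more. Of 11 adrenal genes 1 was tested, Star, at 1.66 against 2.02 ± 0.958 CPM, and 7 had 0 reads in the library, among them Cyp11a1 and Cyp11b1, which make steroid hormones. Summed over the list, the level was 2.09 CPM in the library and 1.33 to 4.09 in the livers. Of 8 pancreas genes 7 had 0 reads. The 6 urothelium genes summed to 8.01 CPM against 0 to 1.12 in the livers, with 118 reads of Upk2. Of 7 fat cell genes 5 were tested, 4 of them higher and 1 lower. Adipoq had 156 reads against 2, 2, 0, 0 and 1, and Cfd was at 27.8 CPM with reads in replicate 3 alone among the livers (0.418 CPM). Ucp1, the uncoupling protein of brown fat, had 139 reads with none in the livers. The lower gene was Adrb3, the beta 3 adrenergic receptor, at 0.858 against 9.17 ± 3.28 CPM, a difference of -3.28. The 7 genes summed to 36.6 CPM against 6.11 to 14.8. The part of neighbouring tissue in the comparison was not tested. Haemoglobin was alike with TMM (Hba-a1 at 165 CPM against a mean of 148, a difference of 0.22 ± 0.48). The deposited RPKM of Hba-a1 was above every liver (311 against 106 to 268). Of 8 leukocyte genes only 2 had enough reads to be tested, and neither was called. With TMM their summed level over all 8 was 9.38 CPM, below that of every liver (11.1 to 20.6), and Ptprc was at 7.09 against 14.2, 9.79, 9.28, 7.90 and 7.40 CPM. By library totals the 8 genes took 0.00144% of the reads, inside the range of the livers (0.00111 to 0.00168%). The deposited RPKM of Ptprc was inside it too (0.613 against 0.412 to 0.652). Transcripts of the Y chromosome were present in all 6 libraries (Ddx3y at 21.3 against 36.5 ± 3.71 CPM), and Xist had 11 reads in the library. The deposited RPKM of Ddx3y was inside the range of the livers (6.28 against 6.05 to 6.83).

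Kidney transcripts were then sought in the other libraries. For 9 defining proximal tubule genes with under 1% of the library's level in the 5 livers, reads were summed and scaled by library total. This filter used the 5 fasted control livers themselves, so a mean under 1% in them was fixed beforehand. The livers of the other groups did not enter it. Kap, 1 of the 9 genes, had also chosen the library. The library had 783533 reads of the 9 genes. The 5 fasted control livers stood at 0.0375, 0.0593, 0.0435, 0.189 and 0.0411% of its level. Cyp4b1, with its even floor in livers, gave 74.0, 70.6, 75.5, 26.6 and 86.5% of the reads in these sums. Without it the 5 livers stood at 0.0110, 0.0196, 0.0120, 0.156 and 0.00626%. Fed control livers were at 0.0512 to 0.0833% (n = 5), fed knockout livers at 0.0727 to 0.0899% (n = 6) and fasted knockout livers at 0.0437 to 0.102% (n = 6). By this sum control fasted replicate 5 was the highest of the 22, with 1591 reads, and knockout fasted replicate 5 the next, with 788. Without Cyp4b1 control fasted replicate 5 was still the highest, with 1168 reads, but the next was control fed replicate 4 at 0.0554%, and knockout fasted replicate 5 was at 0.0255%. The fed control livers were then at 0.0338 to 0.0554%, the fed knockout livers at 0.0151 to 0.0419% and the fasted knockout livers at 0.0112 to 0.0283%. Kap was at 0 reads in 14 of these 22 libraries, and its highest share outside control fasted was 0.0113%, from 34 reads in knockout fasted replicate 5. Genes of the thick ascending limb gave another order. Umod had 42 reads in control fed replicate 1, 42 in knockout fasted replicate 5 and 6 in control fasted replicate 5. Slc12a1 had 8 reads in knockout fed replicate 1 and 0 in control fasted replicate 5.

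In control fasted replicate 5 the share differed from gene to gene. Of the 15 named genes with the greatest positive differences, 11 had reads there, 963 in all. Kap stood at 0.126% of the library's level, Slc34a1 at 0.106%, Fxyd2 at 0.104%, Klk1 at 0.0935% and Slc22a8 at 0.0899%. Umod was at 0.00374% and Cdh16, a cadherin found along the nephron, at 0.0460%, while Slc12a1, Mep1a and Slc22a6 had 0 reads. Control fasted replicate 2 had reads in 8 of the 15 genes, led by Slc22a6 at 0.105%, and livers 1, 3 and 6 had reads in 2, 4 and 3 of them. What brought these reads into the livers was not tested.

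**Figure D5:**
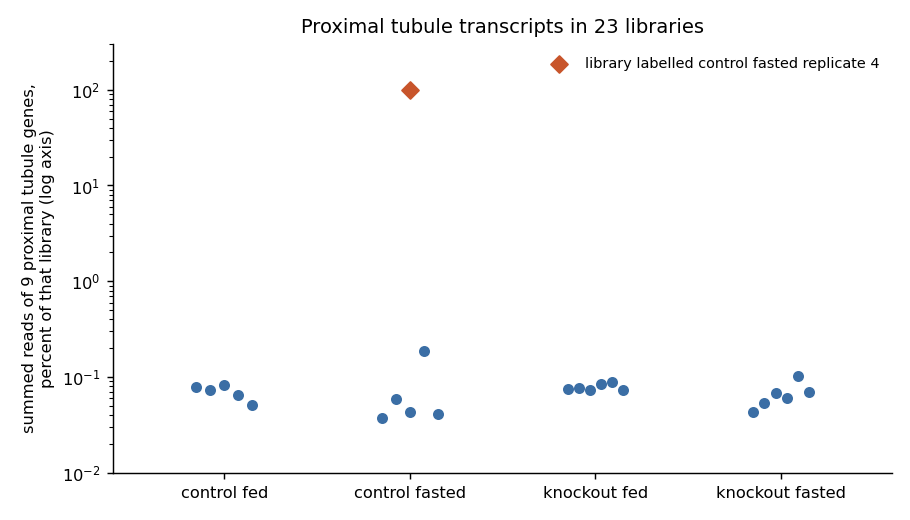
Summed reads of 9 proximal tubule genes per library total, as percent of the library labelled control fasted replicate 4 (diamond, set to 100), for each of the other 22 libraries by group (circles, log axis). The circles lie between 0.0375 and 0.189%, the highest being control fasted replicate 5, and Cyp4b1 gives 23.9 to 86.5% of the reads behind them.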

How the data were processed

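Read counts per gene, CPM and RPKM were deposited by the authors for each library, aligned to GRCm38 with STAR 2.5.1a and counted with featureCounts 1.4.6-p5, per the submitters' processing notes. Annotation release and strand setting: not given in the sources used here. Reads of overlapping, antisense and near-identical genes (Mup, Serpina1, Hba, Cyp4a and Cyp2c families) are therefore uncertain. The deposited CPM values are counts over the library total without a scaling factor, and the deposited RPKM values divide them by the length column, as checked in all 23 usable files. Control fed replicate 6 was left out because its file was damaged (965 complete lines, of chromosome 1). Symbols came from GENCODE M21 for 40254 of 41388 genes.

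Counts of the 6 control fasted libraries were scaled by TMM factors in edgeR 4.0.16 (R 4.3.3), and tables were made in Python 3.11.15. Genes were tested where the mean of the library's CPM and the livers' mean CPM was at least 1. No p-values were computed. Levels between genes used RPKM only. No pair of the 6 libraries was a duplicate: the chi-square per degree of freedom was 58.7 to 178 between livers and 1309 to 1760 against the library under study. The procedure was also run on simulated counts with few changed genes, as many up as down. Those counts lack the many genes nearly absent from a side in this contrast, so they do not check its scaling.

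The library, the 43 gene lists and the marker genes were chosen with earlier results of these data known. The genes named are 8 fixed ones and the 20 with the highest RPKM in the library, without mitochondrially encoded genes. Also named are the 15 greatest differences each way at a mean of at least 50 CPM, without predicted genes and pseudogenes. The rest are up to 6 of each list by RPKM and the 10 most abundant with a difference under 0.3. Those 10 leave out ribosomal protein and mitochondrially encoded genes. Exceptions are stated, and a few genes and 1 searched motif are not reported here. Rhbg and Ren2 were not matched. Alternatives were other scaling, filters, prior counts, fold limits, the median of the livers and each liver left out. Leaving Cyp4b1 out of the proximal tubule sum was added after seeing the data.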

Additional observations from a re-analysis of the deposited data

Results flagged for a closer look

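Among the 5 fasted control livers, 51 values were examined for a library apart from the others: the summed level of each gene list and the 8 fixed marker genes. Chance alone marks about 1 in 20. In 2 of them the gap of one liver to its nearest neighbour, as a share of the whole range, was above the critical value of 0.71 for 5 samples. The summed level of the amino acid breakdown genes was highest in control fasted replicate 2, with a gap of 0.717 of the range on the log2 scale. Slc12a1 was also highest in control fasted replicate 2, with a gap of 1.0 of the range, because that liver had 1 read of the gene and the other 4 had 0.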

How the results depend on the processing

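The number of genes higher in the library labelled control fasted replicate 4 (2053) became 3269 by library totals, 3680 with no filter beyond 1 read, 792 at a mean of at least 10 CPM and 3350 at 2-fold. The number lower (1053) became 2018 at 2-fold. Both stayed within 1.5 times under the other alternatives run: RLE factors, TMM without the most abundant genes, prior counts of 0.5 and 5, the median of the livers and 8-fold. Of all calls 66.1% were higher, but 80.5% by library totals, 73.2% with no filter and 53.0% at 10 CPM or more. With each liver left out in turn, 2060 to 2081 genes were higher and 1063 to 1078 lower. The median plasma protein share (0.168%) was 0.282% by library totals and 0.165 to 0.183% with a liver left out. The highest proximal tubule share in another library (0.189%) was 0.126% for Kap alone, 0.136% for genes under 0.1%, 0.156% without Cyp4b1 (chosen after seeing the data) and 0.318% with TMM factors over all libraries. No named gene that was called took the opposite sign under any alternative. The labels pair no samples here. No paired analysis was possible because the result is a description of 1 library with no test. A read count of 0 in the library allows up to 0.0452 CPM, for counting error only.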
